A study of Arabidopsis thaliana with 4 samples.

Results

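The genes described here encode the Polycomb repressive complex 1 (PRC1)-like proteins of Arabidopsis thaliana together with the chromatin proteins LHP1 and EMF1. They were chosen by locus code: RING1A (AT5G44280), RING1B (AT1G03770), BMI1A (AT2G30580), BMI1B (AT1G06770), BMI1C (AT3G23060), LHP1 (AT5G17690) and EMF1 (AT5G11530). All 7 of these genes, of 32627 on the array, had a value, in 9 of 37118 transcript models. The RefSeq gene table for TAIR10.1 lists AT2G30580 as DRIP2 with BMI1A as a synonym, AT1G06770 as DRIP1, AT5G17690 as TFL2 with LHP1 as a synonym, and AT3G23060 without a symbol.

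Polycomb proteins keep developmental genes silent. PRC2 methylates lysine 27 of histone H3, and PRC1 attaches ubiquitin to histone H2A. In plants the ubiquitin ligase activity lies in RING-finger proteins of the RING1 and BMI1 types, LHP1 reads the PRC2 mark through its chromodomain, and EMF1 is a plant-specific protein that acts with both complexes. In seedlings these proteins hold seed maturation, meristem and flowering genes in check, and plants without EMF1 skip the vegetative phase. JMJ30 is a histone demethylase of the jumonji family, so the comparison asks how these genes were expressed when a demethylase gene was placed under a strong promoter.

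RNA came from seedlings of the Col-0 background, raised on soil in long days (16 hours light, 8 hours dark) at 22 °C, left untreated and collected 13 days after germination. The groups were a wild type labelled as flowering normally and 35S::JMJ30-HA plants, labelled as late flowering, in which the strong viral 35S promoter drives JMJ30 fused to an HA tag. Each genotype had 2 one-colour arrays, described in the labels as biological replicates. The labels do not say how many transgenic lines or how many seedlings a sample held. Replicates with the same number in the 2 genotypes are called set 1 and set 2, from the wording of the study's design.

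Median intensity per array was 25.6 to 26.6, and 17759 to 17848 genes per array lay above an intensity of 14.3, the valley between the 2 modes of the distribution. A gene whose mean over the 4 arrays lay under the valley is called near background, which describes its level and is not a detection call. JMJ30 itself read 705 and 567 in wild-type seedlings and 1054 and 721 in transgenic seedlings, higher on both transgenic arrays but without passing the test (log2 difference 0.46 ± 0.27, SE, limma adjusted p = 1.0). Model 3 of JMJ30, nearly as bright as model 1, went the same way, at 654 and 510 against 894 and 650 (0.40), with overlapping arrays. The much dimmer model 2 went the other way, at 47.7 and 52.9 against 32.5 and 37.96 (-0.52). Models 2 and 3 were also uncalled. All 4 markers of the green shoot lay above the valley, whereas all 4 root markers and all 4 seed storage markers were near background. Of the root and seed markers, the brightest value on any array was 9.44 (NRT2.1), and these root genes give no sign of root tissue above the valley. In RNA from seedlings, fewer cells of a type and less RNA per cell cannot be told apart.

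None of the 7 genes was called as different between the genotypes by limma over all genes (0 of 7, against 0 of 32627 genes, 0%). Read by its brightest transcript model, none of the 7 reached an unadjusted p under 0.05 in limma either, as 2.99% of all genes did. Dimmer models of RING1A and BMI1B are not part of this count and are given below. In the brightest models, log2 differences, transgenic line minus wild type, ran from -0.25 for BMI1B to 0.30 for BMI1C. Their median was 0.06 against -0.0039 over all genes. The 95% intervals of these brightest models, taken before adjustment, lay inside a 2-fold change in either direction for all 7, as they did for 75.7% of all genes. Read in the same way, both transgenic arrays stood above both wild-type arrays for 3 genes (RING1B, BMI1C and EMF1), where 12.7% of all genes did so. They stood below them for 0 genes, where 13.3% did.

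**Figure D1:**
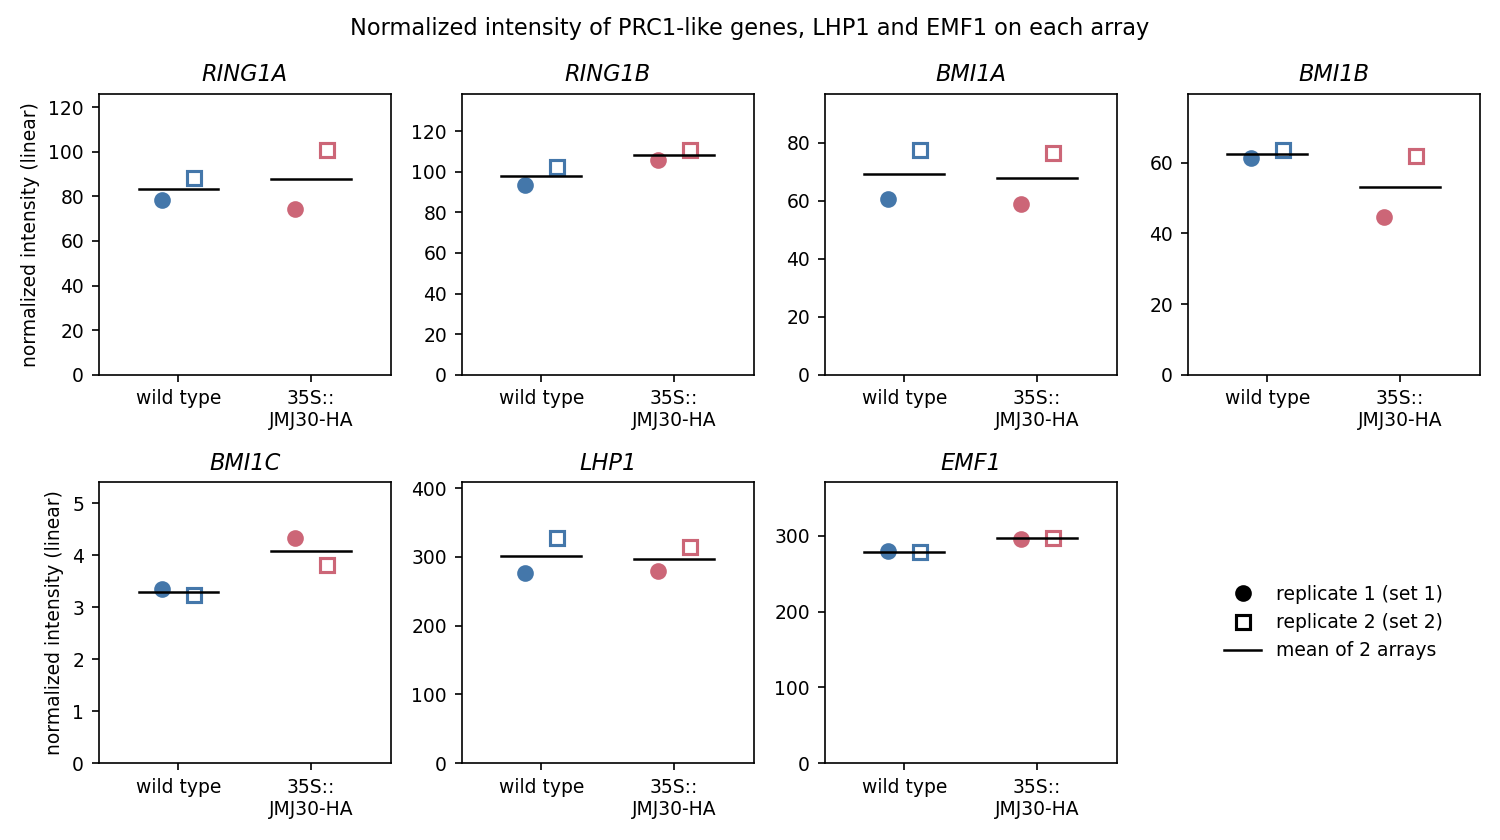
Normalized intensity (linear scale, y axis from 0 in each panel) of the 7 genes on each array, with filled circles for replicate 1, open squares for replicate 2 and a bar at the mean of the 2 arrays. The EMF1 replicates nearly coincide within each genotype, while BMI1A separates by replicate number and not by genotype; panels have their own axes and are not to be compared in height.

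The RING1 proteins are the partners of BMI1 proteins in the ubiquitin ligase. RING1A read 78.2 and 88.1 on the wild-type arrays and 74.4 and 101 on the transgenic ones, given here and below in the order replicate 1 and replicate 2. The transgenic arrays held both the lowest and the highest value, so the groups overlapped completely. The means were 83.2 ± 6.996 (SD, n = 2) and 87.7 ± 18.7 (SD, n = 2), and the log2 difference was 0.06 ± 0.23 (SE, limma adjusted p = 1.0), with a 95% interval from -0.53 to 0.65. The sets went opposite ways, with -0.07 for set 1 and 0.20 for set 2. Without transgenic replicate 2 the difference was -0.16, and without wild-type replicate 1 it was -0.02.

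RING1A has another model on the array, which was near background. Its 4 values for model 2 were 3.84 and 5.33 on the wild-type arrays and 2.47 and 2.26 on the transgenic ones. Both transgenic arrays lay under both wild-type arrays, with a log2 difference of -0.94 ± 0.23 (SE) that did not pass the test over all 37118 models (limma adjusted p = 1.0). The interval and unadjusted p of model 2 are not given here, and the statements above on 2-fold intervals and unadjusted p do not cover it. When the log2 values of both models were averaged, the sign of RING1A turned, to -0.44. The brighter model 1 stands for the gene here, and the sources used here do not give the exons that either model probes. The gene table places AT5G44270 over part of RING1A, and that gene was near background, at 4.54 and 4.19 in the wild-type and transgenic means. Whether either RING1A model also reads AT5G44270 was not tested.

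RING1B, the close relative of RING1A, was a little brighter on both transgenic arrays. It read 93.3 and 103 on the wild-type arrays and 106 and 111 on the transgenic ones, and the groups did not overlap. The means were 97.9 ± 6.50 and 108 ± 3.55 (SD, n = 2 each), a 1.11-fold ratio. The log2 difference of 0.15 ± 0.19 (SE) did not pass the test (limma adjusted p = 1.0), and its 95% interval reached from -0.32 to 0.62. It was 0.18 in set 1 and 0.11 in set 2. RING1B overlaps TPX2, a spindle assembly gene, in the gene table. TPX2 read 154 and 159 on the wild-type arrays and 162 and 187 on the transgenic ones, and whether either probe set reads both transcripts was not tested.

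BMI1A and BMI1B are close relatives, also known as the DREB2A-interacting ubiquitin ligases DRIP2 and DRIP1. BMI1A read 60.8 and 77.6 on the wild-type arrays and 58.8 and 76.6 on the transgenic ones. The values paired by replicate number, with nearly the same step from replicate 1 to replicate 2 in both genotypes. Its log2 difference between genotypes was -0.03 ± 0.24 (SE, limma adjusted p = 1.0), with a 95% interval from -0.65 to 0.58. That fit counts the step between replicates as error. With replicate number as a further term the SE was 0.16 and the interval ran from -0.46 to 0.40. Within set 1 the difference was -0.05 and within set 2 -0.02, and the sign turned when either wild-type replicate 2 (0.14) or transgenic replicate 1 (0.16) was left out.

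BMI1B had the most negative genotype difference of the 7 genes, each read by its brightest model. It read 61.4 and 63.7 on the wild-type arrays and 44.7 and 61.9 on the transgenic ones. Replicate 1 of the transgenic line stood alone, and replicate 2 was close to the wild type. The means were 62.5 ± 1.67 and 53.3 ± 12.2 (SD, n = 2 each), and the log2 difference was -0.25 ± 0.23 (SE, limma adjusted p = 1.0), with a 95% interval from -0.84 to 0.34. It was -0.46 in set 1 but -0.04 in set 2, and leaving out transgenic replicate 1 moved it to -0.01. The dimmer model 2 of BMI1B read 30.2 and 22.1 on the wild-type arrays and 24.3 and 30.6 on the transgenic ones. Its arrays overlapped, its log2 difference had the other sign (0.08), and the mean of both models gave -0.09.

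BMI1C, the third BMI1 gene, was near background on all 4 arrays. It read 3.36 and 3.23 on the wild-type arrays and 4.33 and 3.82 on the transgenic ones. Both transgenic values were higher, but all 4 lay under the lower mode of the distribution at 4.36. The log2 difference of 0.30 ± 0.19 (SE, limma adjusted p = 1.0, 95% interval -0.18 to 0.79) therefore compares values that are all near background. With log2(value + 16) it was 0.06.

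LHP1, the chromodomain protein that binds methylated lysine 27 of histone H3, read 277 and 327 on the wild-type arrays and 279 and 315 on the transgenic ones. The wild-type arrays enclosed the transgenic ones, and in both genotypes replicate 2 was brighter. The means were 302 ± 35.7 and 297 ± 25.04 (SD, n = 2 each), with a log2 difference of -0.02 ± 0.20 (SE, limma adjusted p = 1.0) and a 95% interval from -0.54 to 0.49. It was 0.01 in set 1 and -0.06 in set 2, and 0.0068 after each array was centred on its median, so no direction can be given. The gene table places AT5G17680 over part of LHP1, and that gene was near background, at 3.78 and 5.53 in the genotype means.

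EMF1, the repressor that keeps seedlings vegetative, had the tightest replicates of the 7 genes. It read 279 and 279 on the wild-type arrays and 296 and 297 on the transgenic ones. The means were 279 ± 0.64 and 297 ± 0.32 (SD, n = 2 each), a 1.06-fold ratio, and the groups did not overlap. The log2 difference was 0.09 ± 0.18 (SE, limma adjusted p = 1.0), with a 95% interval from -0.37 to 0.55, and it was 0.09 in both sets. EMF1's own SD within genotypes was 0.0026 on the log2 scale, at or under which only 0.0225% of genes above the valley lay. The limma SE is larger because it draws each gene's spread towards that of all genes. With an ordinary linear model, which does not, the SE was 0.0026. That model gave EMF1 an unadjusted p of 0.000853, which rests on its small SD, but an adjusted p over all genes of 1.0. Of all genes, 3.67% fell under an unadjusted 0.05 in that model, and the share at or under EMF1's own p was not counted. The exact permutation test cannot go below 0.333 with these arrays.

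**Figure D2:**
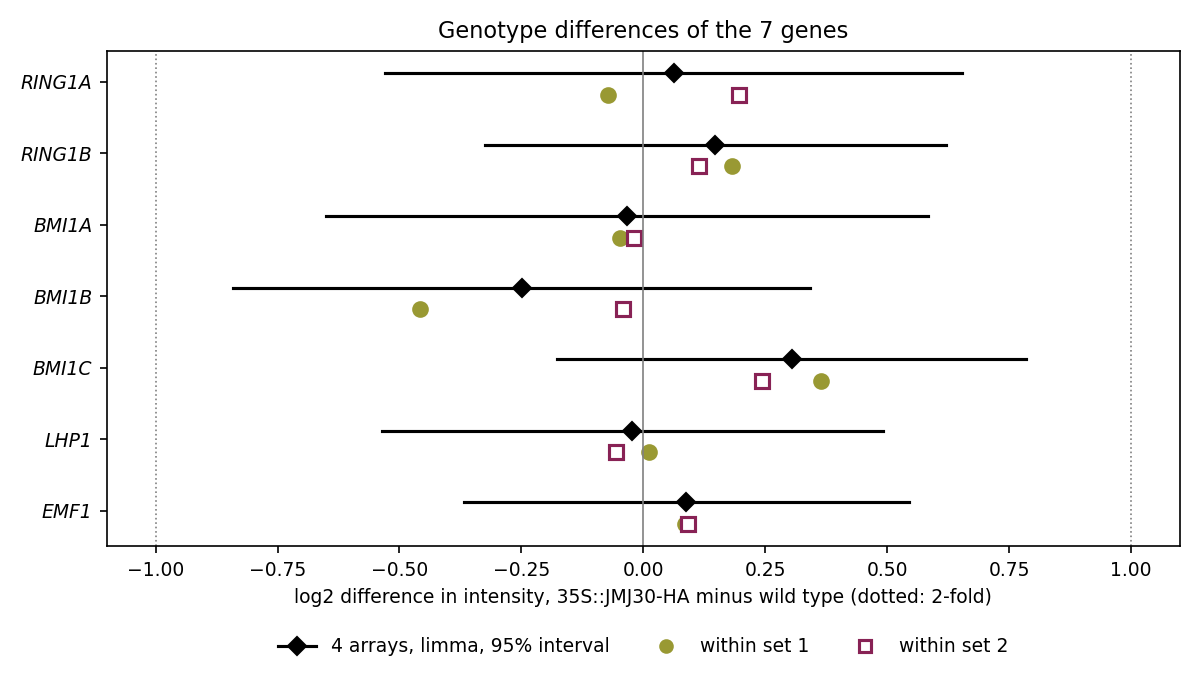
Log2 difference in normalized intensity, 35S::JMJ30-HA minus wild type (x axis), for each of the 7 genes, with diamonds and 95% limma intervals from all 4 arrays and with the values within set 1 (circles) and set 2 (squares). Each gene is read by its brightest transcript model. Every interval crosses 0 and stays inside the dotted 2-fold lines, and the sets differ in sign for RING1A and LHP1.

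The replicate number separated several of these genes more than the genotype did, as it did genes in general. Above the valley sets differed by a median absolute log2 value of 0.19 and genotypes by 0.097, and 24.4% of genes had a larger step between the sets than BMI1A, which had the largest of the 7. In both genotypes 5 of the 7 were brighter in set 2 (RING1A, RING1B, BMI1A, BMI1B and LHP1), against 32.3% of all genes. Among the 6 members above the valley it was the same 5, against 36.4% of genes above the valley. No member was called between the sets in limma with both terms (0 of 7, against 0.0123% of all genes, 4 of 32627), and none reached an unadjusted p under 0.05, as 15.5% of all genes did.

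BMI1A had the largest step between the sets, 0.37 ± 0.16 (SE) on the log2 scale as set 2 minus set 1 (limma adjusted p = 0.379), at 0.35 within the wild type and 0.38 within the transgenic line. RING1A followed at 0.31 ± 0.18 (adjusted p = 0.473), with 0.17 within the wild type and 0.44 within the transgenic line. BMI1B was at 0.26 ± 0.19 (adjusted p = 0.567), a step of 0.47 in the transgenic line but only 0.05 in the wild type. LHP1 was at 0.21 ± 0.16 and RING1B at 0.10 ± 0.16, each with both genotypes in the same direction. EMF1 stayed level between the sets (-0.0013 ± 0.16), and near-background BMI1C read -0.12 ± 0.17. What the sets shared in growth, harvest or hybridization is not stated in the labels.

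**Figure D3:**
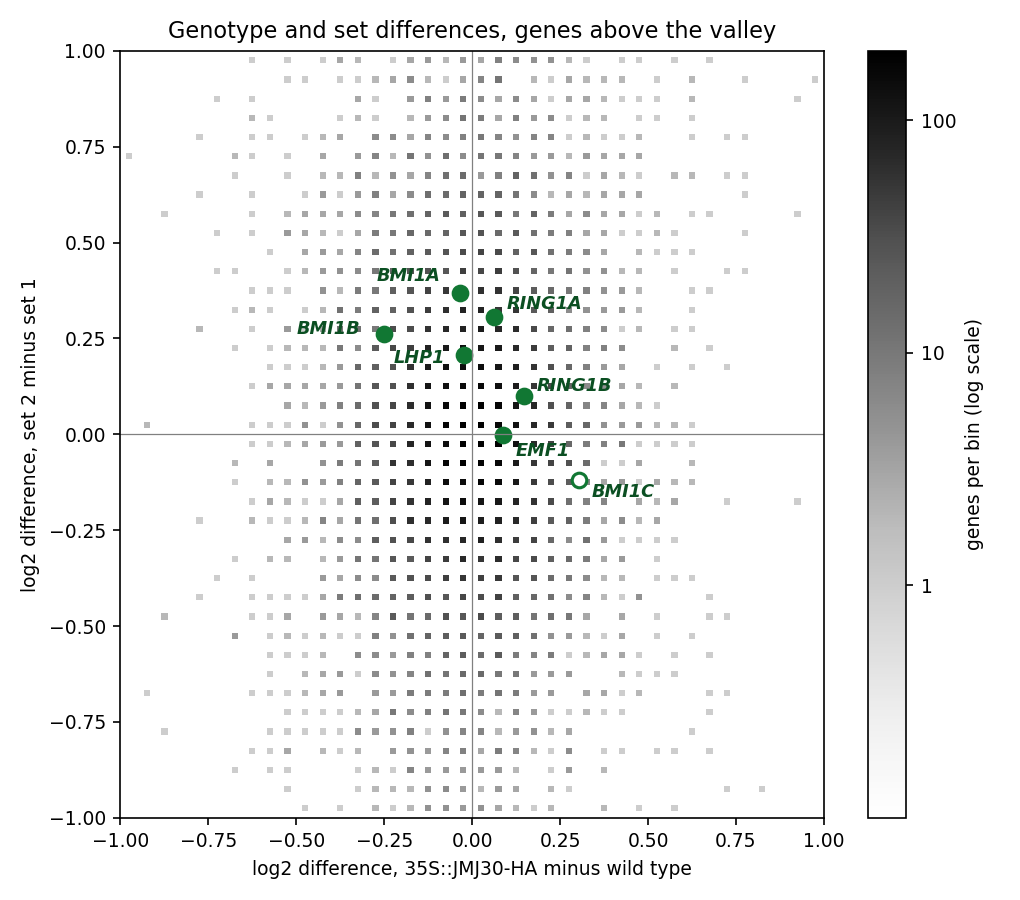
Log2 difference between genotypes (x axis) against log2 difference between sets (y axis), with the 7 genes as green points, near-background BMI1C open, and grey bins shaded by the number of the 17790 genes above the valley (549 outside the axes are not drawn). RING1A, BMI1A, BMI1B and LHP1 lie above 0.2 on the set axis, and EMF1 lies at 0 there.

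The steps across the 4 arrays were not shared by all members. By the root mean square distance between log2 values centred on each gene's own mean, the most alike pair was RING1B and EMF1 (0.062 over 4 arrays), followed by RING1A and BMI1A (0.082) and BMI1A and LHP1 (0.084). The least alike pair was BMI1B and BMI1C (0.36). Outside the group, the gene closest to RING1A was AT1G58280 (0.0090), to RING1B the spermidine synthase gene SPDS1 (0.0080), to BMI1A AT3G26115 (0.0084) and to BMI1B AT4G12780 (0.0094). LHP1 was closest to MOS14 (0.0042) and EMF1 to AT3G23750 (0.0053). BMI1C, at values near background, was closest to HHP1 (0.010). The next closest were HSP81-2 for RING1A, VDAC1 for RING1B, PMD2 for BMI1A, SETH6 for BMI1B, NHX2 for BMI1C, AT2G25530 for LHP1 and LOV1 for EMF1, at distances up to 0.019. With 4 arrays such likeness is common: between 47 genes (BMI1B) and 770 genes (EMF1) lay within 0.05 of a member.

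No gene for a protein that works with PRC1 was called either. Of 17 partners and recruiters, 8 were higher and 9 lower in the transgenic line, 0 were called by limma and 0 had an unadjusted p under 0.05 (2.99% of all genes had), and the median log2 difference was -0.0080. The list holds the ALFIN1-like PHD-finger proteins that bind RING1 and BMI1, the B3-domain recruiters VAL1 to VAL3, the LHP1 partner LIF2, the histone readers EBS and SHL1, the TRB telobox-binding proteins and VRN1. The members with the largest moderated t were AL5, at 29.8 and 30.9 against 23.9 and 25.2 (-0.30 ± 0.18), and AL4, at 225 and 265 against 288 and 288 (0.24 ± 0.19). The arrays of these 2 ALFIN1-like genes, picked for their large t, did not overlap between genotypes, and they lay in opposite directions. Without overlap, 2 of the 17 genes were higher and 2 were lower in the transgenic line. Of all genes, 12.7% were higher and 13.3% lower in this way, so the separation does not set AL4 and AL5 apart.

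The list of H2A deubiquitination and Trithorax-type or remodelling genes showed 3 members higher and 5 lower of 8. It had 0 called, 0 at an unadjusted p under 0.05 and a median of -0.05. Among these genes UBP12 and UBP13 encode deubiquitinases of histone H2A, and ULT1, ATX1, BRM, SYD and PKL belong to Trithorax-type or remodelling factors. ULT1 read 132 and 114 on the wild-type arrays and 116 and 92.4 on the transgenic ones (-0.24 ± 0.22), with overlapping arrays, and its relative ULT2 was near background (-0.31 ± 0.34). Of 8 PRC2 subunits, 5 were higher and 3 lower, with 0 called, 0 at an unadjusted p under 0.05 and a median of 0.0044. SWN, a histone H3 lysine 27 methyltransferase, read 277 and 296 against 256 and 264 (-0.14 ± 0.18), and the seed subunit FIS2 was near background (0.16 ± 0.24).

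Genes that PRC1 is known to silence stayed mostly near background in both genotypes. Of 8 seed maturation and embryo genes, 7 were near background, among them LEC1, LEC2, FUS3 and ABI3, the master regulators of seed development that are derepressed in plants without BMI1 or RING1 activity. The list split evenly, 4 higher and 4 lower, with 0 called, 0 at an unadjusted p under 0.05 and a median of -0.01. AGL15, an embryo MADS-box gene and the only one above the valley, read 73.8 and 72.8 against 53.1 and 71.0 (-0.26 ± 0.22). The root stem-cell gene WOX5 was near background (-0.34 ± 0.24).

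Of 14 meristem and flower targets, 10 were near background, including AG, AP1, AP3, PI and WUS. The list held 8 members higher and 6 lower, with 0 called and a median of 0.03. At an unadjusted p under 0.05 stood 2 of 14, against 2.99% of all genes. These were FLC, the repressor of flowering, at 13.3 and 12.2 against 25.4 and 32.7 (1.18 ± 0.22), and SEP2, near background at 5.39 and 4.39 against 8.03 and 9.91 (0.88 ± 0.22). Both wild-type values of FLC lie under the valley of 14.3, so its mean was above the valley only through the transgenic arrays, and the size of its difference rests on a wild-type level near background. Neither passed the adjusted test (limma adjusted p = 1.0 for both). The class I homeobox genes STM, at 18.2 and 15.1 against 21.3 and 17.2, and KNAT1, at 70.0 and 84.7 against 66.2 and 93.9, overlapped between the genotypes.

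These list medians moved with single arrays, in fits that mix genotype with set. Without transgenic replicate 2 the PRC2 median was -0.13 and that of the meristem and flower targets -0.13. Without transgenic replicate 1 the PRC2 median was 0.10 and that of the seed and embryo targets 0.17. That of the deubiquitination and Trithorax-type list was then 0.02. The partners and recruiters stayed between -0.02 and 0.02, with either sign, and no list median is given as a direction.

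**Figure D4:**
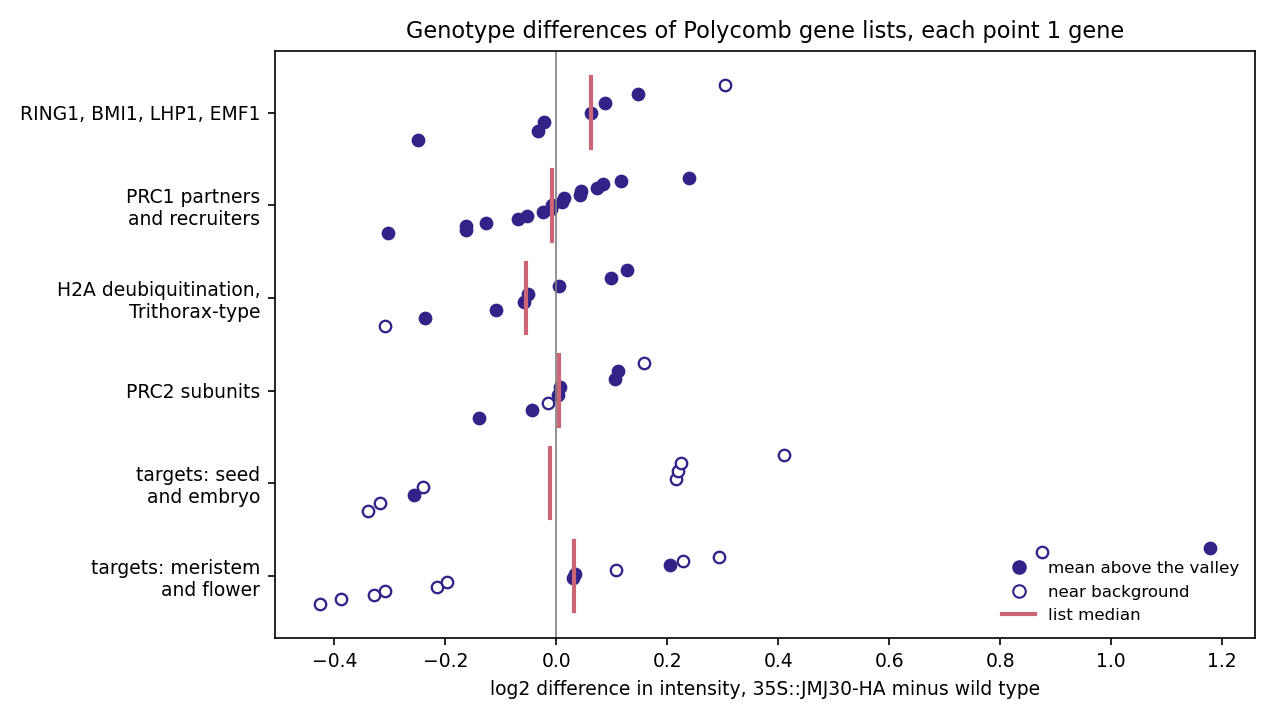
Log2 difference in normalized intensity, 35S::JMJ30-HA minus wild type (x axis), for the members of 6 Polycomb gene lists (rows), with open points for genes near background and a red bar at each list's median. With all 4 arrays the medians lie between -0.05 and 0.06, and FLC (1.18) and SEP2 (0.88) are the points farthest to the right.

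Markers of dividing cells, which include the mitotic cyclins CYCB1;1 and CYCB1;2, had a positive log2 difference for 4 of 4 genes, with 0 called and a median of 0.12, which became 0.20 without wild-type replicate 2. Only 3 of 4 were higher in both sets, KNOLLE being lower in set 2 (-0.13). CYCB1;2, at 182 and 208 against 225 and 247 (0.28 ± 0.19), was the 1 of these 4 whose arrays did not overlap. Its transgenic arrays both lay above the wild-type ones, where 12.7% of all genes did so and 13.3% lay below. CYCB1;1 read 54.5 and 59.6 against 57.2 and 71.2 (0.16 ± 0.21). The summed intensity of the 4 was 790 and 904 on the wild-type arrays and 913 and 911 on the transgenic ones. The part of dividing cells in the values of RING1B and EMF1 was not tested. The summed intensity of the shoot markers was 4528 and 4543 on the wild-type arrays and 3997 and 4457 on the transgenic ones, with LHCA1, a light-harvesting gene, at 1626 and 1783 against 1201 and 1467 (-0.36 ± 0.20), and the oxygen-evolving complex gene PSBO1 at 1262 and 1094 against 1197 and 1337. The summed intensity of the root markers was 21.2 and 23.5 in the wild type against 24.1 and 22.3, with NRT2.1 at 0.33 ± 0.26 and PRP3 at -0.21 ± 0.31 on the log2 scale. That of the seed markers was 22.0 and 20.9 against 15.7 and 19.5, with a median log2 difference of -0.31. Both transgenic arrays lay below both wild-type arrays for CRA1, at 6.73 and 7.99 against 4.81 and 3.43 (-0.85 ± 0.25). The same held for SESA2, at 4.81 and 5.20 against 2.87 and 3.89 (-0.58 ± 0.23). For CRU3 they lay above, at 3.55 and 3.65 against 3.98 and 5.61 (0.39 ± 0.24), and OLEO1 overlapped (-0.04 ± 0.38). Of all genes, 13.3% lay below and 12.7% above in this way. All these root and seed values are near background, and none was called.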

How the data were processed

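Total RNA was hybridized to 4 one-colour NimbleGen arrays, 2 per genotype. The authors deposited normalized intensity values, made with RMA per the submitters' processing notes, without version or settings. Since they reach 4400, the deposited intensities were treated as linear and converted to log2 without a pseudocount. Depth has no meaning for arrays, and their number limits precision. A gene was represented by its transcript model with the highest mean log2 value (3602 genes had several). The valley was the minimum of the density of mean log2 values. The genotype test used limma 3.58.1 under R 4.3.3 (linear model with empirical Bayes moderation, two-sided, Benjamini-Hochberg over 32627 genes, called at adjusted p below 0.05), with genotype as its only term. The test of sets used genotype and replicate number as terms. The script was tested on simulated data. Plots used matplotlib 3.10.9. Because the labels do not tie replicates to separate plantings, p-values measure the spread between these samples.

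The 7 genes and the lists were chosen with earlier results of these data known. The rule named the 7 genes, JMJ30, the 2 list members with the largest absolute moderated t where none was called, and the 2 genes nearest to each member over the arrays. Those neighbours came from genes above the valley whose range was at least that of the member divided by 2. Other list genes named were chosen after their values were seen. Symbols came from the RefSeq table of TAIR10.1 (31993 of 32627 loci found, 98.1%), used for names and overlaps only, since the files name no build.

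The design text speaks of independent sets of both genotypes, which was read as pairing equal replicate numbers. Deviations from the genotype means correlated at 0.42 over all genes and 0.68 above the valley (genes are not independent replicates). An exact permutation test on 2 against 2 arrays cannot go below p = 0.333. Alternatives were the replicate block, other model summaries, variance priors, scales, normalizations, a filter on low values, another threshold, and leaving out each array.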

Additional observations from a re-analysis of the deposited data

How the results depend on the processing

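No member tested was called under any of 15 alternatives to the genotype comparison or 7 to the comparison of sets. BMI1C was not tested in those restricted to genes above the valley, which held 6 members. The alternatives for the sets and the lists, and the replicate block restricted to genes above the valley, were chosen after seeing the data. With the replicate block 0 members and 0 genes were called, the adjusted p-values of the members lay between 0.893 and 0.999, and the pairing changed no call. The count over all genes rose to 1 at the looser threshold of 0.10, to 1 when eBayes used trend and robust estimation, and to 3 with the block above the valley, and was 0 to 0 without each array in turn.

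RING1B, BMI1B, BMI1C and EMF1 kept their direction under all alternatives run for them, but many of these could not turn a sign. The replicate block, the other variance estimates, each model as its own row and the filter on low values return the same difference by construction. Averaging models cannot change RING1B, BMI1C or EMF1, which have a single model. The dimmer model 2 of BMI1B had the other sign (0.08). RING1A turned to -0.44 with the mean of its models, and LHP1 to 0.0068 with median centring. Leaving out each array gave -0.16 to 0.28 for RING1A, -0.22 to 0.16 for BMI1A, -0.14 to 0.098 for LHP1, -0.48 to -0.015 for BMI1B, 0.21 to 0.39 for BMI1C, 0.080 to 0.22 for RING1B and 0.086 to 0.091 for EMF1. Such fits mix genotype with set, since 1 set then holds a single genotype. The cause of the other changes was not tested. With 2 arrays per genotype, a missing call does not show that a gene did not differ. List medians without each array in turn ran from -0.13 to 0.10 for PRC2 subunits and -0.13 to 0.11 for meristem and flower targets. They ran from -0.13 to 0.17 for seed and embryo targets and -0.092 to 0.017 for the deubiquitination and Trithorax-type list. Medians of the markers ran from -0.50 to -0.020 for seed, -0.27 to 0.087 for shoot and -0.16 to 0.10 for root.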
